A study of Homo sapiens with 12 samples.

Results

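The 49 genes described here build and run the mitotic machinery: 13 kinesin motors, 7 mitotic kinases, 3 checkpoint proteins, 7 genes of the anaphase-promoting complex and the separase axis, 6 condensin and topoisomerase genes, 3 chromosomal passengers, 3 centromere proteins, 5 spindle and cytokinesis genes and 2 centrosome genes. They were taken by gene symbol from a splicing table of a B cell line treated with a splicing modulator, with no threshold on a measured value. Spliced reads could be tested for all 49, among 10182 genes in all. Of the 3471 rows that the table holds for them, 1117 passed the filters on reads, level and intron balance. MEC1 was established from B cells of chronic lymphocytic leukemia. The 4 groups of 3 samples each were K700E cells with H3B-8800, K700E cells with DMSO, WT cells with H3B-8800 and WT cells with DMSO. H3B-8800 was given at 75 nM, and both treatments lasted 6 h. The K700E samples are 3 edited clones that carry the SF3B1 K700E base change together with a further base change in the same gene. WT replicates 1 and 2 carry no edit of SF3B1 per the labels, and WT replicate 3 is an edited clone with the further change alone. Each clone or culture gave 1 H3B-8800 and 1 DMSO sample, and p-values measure the spread between these clones and cultures. The edit itself cannot be read from a splicing table.

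In mitosis the duplicated chromosomes are compacted by condensin and topoisomerase, attached through centromeres to a bipolar spindle that motors and centrosomes shape, and released for segregation when the anaphase-promoting complex tags securin and cyclin B for destruction. The checkpoint holds that complex back until every chromosome is attached. SF3B1 is the subunit of the U2 particle that helps it settle on the branch site upstream of an exon. The K700E change is known to make the particle accept other branch sites, so that 3' splice sites a short way upstream of the usual ones come into use. H3B-8800 binds the SF3b complex around SF3B1.

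The level of an event is the percentage of a gene's local transcripts that include the exon, keep the intron or use the splice site. Levels are given as mean ± SD over the 3 samples of a group wherever no single samples are listed, in the order of the replicates where they are. A change was called when the adjusted p was under 0.05 (limma on the log odds, Benjamini-Hochberg over all events tested) and the group means differed by at least 10 percentage points. Most events named below for the drug's effect were also picked for groups that do not overlap. The choice was made in WT cells, or in K700E cells where WT cells had none. Their separation there is no result of its own. Each sample held 45840233 to 56676172 exon-exon reads, and the 6 samples with H3B-8800 lay below the 6 with DMSO. The B cell markers CD79A, CD79B, MS4A1, PAX5, CD22 and BLK were read at 39 to 1285 RPM (the gene's exon-exon reads at its introns, scaled to the library's total of such reads) in every sample. The 10 T, NK and myeloid markers stayed at or below 1.33 RPM, with CD3G at 0 in all samples, and of the epithelial and fibroblast markers KRT8 reached 9.69 RPM.

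H3B-8800 changed the splicing of nearly every one of these genes in both genotypes. Of 1117 tested events, 381 were called in K700E cells (34.1%) and 370 in WT cells (33.1%), against 31.3% and 32% of all 109093 tested events. The shares of members lie close to those of all events. At least 1 event was called in 47 member genes in K700E cells and in 46 in WT cells (95.9% and 93.9%), where all genes with a tested event gave 75.3% and 75.5%. The members have a median of 20 tested events per gene, against 8 over all genes, so they had more chances to hold one. MAD2L1 and PTTG1, with 3 tested events each, had no call in either genotype, and PLK1 had none in WT cells. In all, 339 member events were called in both genotypes, and all 339 moved in the same direction. The same counts were not made over all events, so this cannot be read as particular to the members.

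Where a change was called, exons were mostly included less and introns mostly retained more. Of 396 tested exons, 171 were included less in K700E cells and 185 in WT cells (43.2% and 46.7%), against 38.5% and 40.3% of all exons. The call in the other direction was made for 3 member exons in each genotype. Of 494 tested introns, 160 were retained more in K700E cells and 144 in WT cells (32.4% and 29.1%), against 31.6% and 31.9% of all introns. Lower retention was called for 3 introns in K700E cells and for 2 in WT cells. The median over all tested member exons was -7.21 points in K700E cells and -8.54 in WT cells, and over member introns 5.6 and 4.46 points, beside -6.46 and -6.88 for all exons and 5.02 and 4.92 for all introns. Alternative 3' sites were called in 37 of 150 cases in K700E cells and 27 in WT cells (24.7% and 18%), against 12.2% and 9.24% of all such sites. Alternative 5' sites were called in 7 of 77 cases in K700E cells and 9 in WT cells (9.09% and 11.7%), against 5.59% and 7.06% over all genes.

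**Figure D1:**
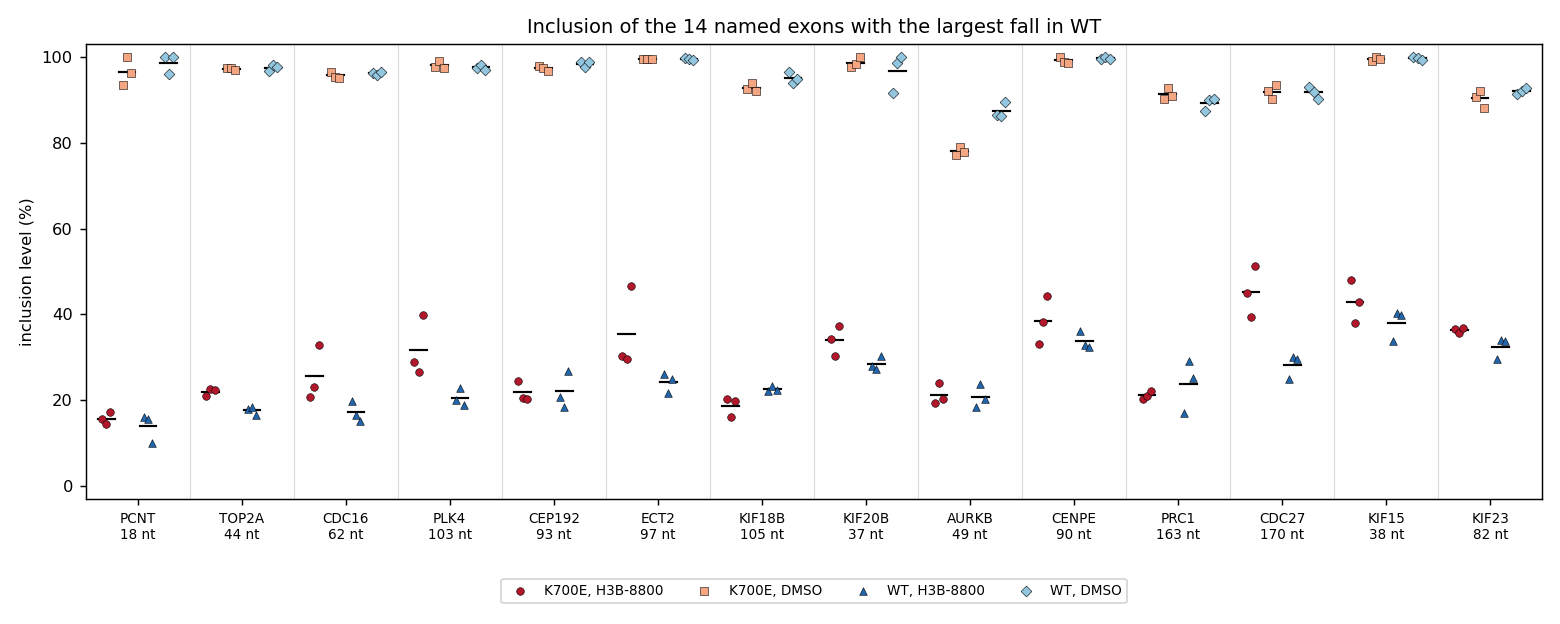
Inclusion level (%) of the 14 member exons with the largest fall in WT cells among those named in the text, 1 point per sample, with K700E H3B-8800, K700E DMSO, WT H3B-8800 and WT DMSO from left to right for each exon; bars mark group means and the exon length stands under the gene. In all 14 the 3 samples with H3B-8800 lie below the 3 with DMSO in both genotypes, and TOP2A is at 22.0% and 97.2% in K700E cells. In WT cells this was a condition for naming an exon.

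Spliced reads per gene changed in both directions. In K700E cells 22 members had fewer (44.9%) and 12 more (24.5%), against 35.8% lower and 16.2% higher over all genes. In WT cells 20 had fewer (40.8%) and 13 more (26.5%), against 40.8% and 18.5%. The median of all genes was itself down by a log2 change of -0.22 in K700E cells and -0.28 in WT cells, and scaling by median-of-ratios size factors moved those medians to -0.00 and -0.01. Under that scaling the split turned to 15 lower and 21 higher in K700E cells, and to 15 lower and 19 higher in WT cells. These are 30.6% and 42.9% of the members in K700E cells and 30.6% and 38.8% in WT cells, against 26.2% lower and 26.4% higher over all genes in K700E cells and 29.3% and 29.2% in WT cells. Below, "fell" and "rose" are kept for genes called under both scalings. In bulk samples fewer cells in a phase of the cycle and less RNA of a gene per cell cannot be told apart. Spliced reads are counted at the junctions of a gene's introns, so a kept intron or a lost exon also takes reads from the sum. A fall is thus not a measure of RNA level alone, and the part of each was not tested. With clone or culture added as a replicate block, 10 further members passed in K700E cells and 9 in WT cells, and 44 and 42 of the 49 in all (89.8% and 85.7%), against 78.3% and 82.4% of all genes. The values with the block are given beside those genes. Each drug call of a member made without the block also held with it. The fits below with a library left out or on a single genotype take no account of this pairing.

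The genes of the anaphase-promoting complex (APC/C), the ligase that starts anaphase, showed both kinds of change. These measures share reads. Spliced reads of CDC16, CDC23 and CDC27, which form its arms, of ANAPC1, its largest subunit, and of CDC20, its activator, fell in both genotypes, so that 5 of the 7 genes of the axis fell and none rose. Over all genes, 35.8% in K700E cells and 40.8% in WT cells were called as lower without size factors. With size factors these shares were 26.2% and 29.3%. The median log2 change over the 7 genes of the axis was -0.89 in K700E cells and -0.90 in WT cells, beside -0.22 and -0.28 over all genes. In these 7 genes 31 of 65 exons were called as included less in each genotype (47.7%, against 38.5% of all exons in K700E cells and 40.3% in WT cells). Of 84 introns, 34 and 36 were called as retained more in K700E and WT cells (40.5% and 42.9%, against 31.6% and 31.9% of all introns).

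CDC23 stood at 41.7, 36.1 and 39.4 RPM in K700E cells with H3B-8800, against 114, 104 and 102 RPM in K700E cells with DMSO. It stood at 29.8, 36.2 and 33.7 RPM in WT cells with H3B-8800, against 108, 109 and 114 RPM in WT cells with DMSO. The groups do not overlap, and the log2 changes were -1.45 in K700E cells and -1.73 in WT cells (SE 0.09, adjusted p = 1.0e-06 and 1.8e-07). CDC20 averaged 158 ± 5.2 RPM with H3B-8800 and 349.9 ± 20 RPM with DMSO in K700E cells, and 137 ± 8.3 RPM with H3B-8800 and 376 ± 22 RPM with DMSO in WT cells. The log2 changes of ANAPC1, CDC27 and CDC16 were -0.89, -1.04 and -0.75 in K700E cells and -1.20, -0.89 and -0.90 in WT cells. CDC27 has near-identical copies elsewhere in the genome, so its reads are uncertain. Separase itself, ESPL1, which cuts cohesin, had log2 changes of -0.13 and -0.30 with adjusted p of 0.581 and 0.165 in K700E and WT cells, and 7.0e-04 in WT cells with the replicate block. PTTG1, or securin, the inhibitor that APC/C removes from separase, had log2 changes of 0.16 and 0.10 with adjusted p of 0.395 and 0.6002, and 0.0128 in K700E cells with the replicate block. With size factors PTTG1 was called as higher in both genotypes (0.38 and 0.36, adjusted p = 0.0325 and 0.0333).

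The exon of CDC16 with the largest loss is exon 15 of 19 of the principal transcript, 62 nt long, on the plus strand at chr13:114261887-114261948 (hg38). It is shown here because its loss shifts the reading frame in the coding part. The exon is in capitals between 30 bases of each neighbouring exon, and the second line gives the neighbours joined, with the first stop codon in frame in capitals. All sequences here were read from the GENCODE 29 transcripts on GRCh38.
CDC16 exon 15: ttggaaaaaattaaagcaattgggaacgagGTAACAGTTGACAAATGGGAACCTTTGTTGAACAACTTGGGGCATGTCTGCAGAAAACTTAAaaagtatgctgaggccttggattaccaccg
CDC16 without exon 15: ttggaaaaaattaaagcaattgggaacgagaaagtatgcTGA
Inclusion was 20.9, 22.98 and 32.9% in K700E cells with H3B-8800, against 96.5, 95.4 and 95.1% in K700E cells with DMSO. It was 19.8, 16.6 and 15.1% in WT cells with H3B-8800, against 96.1, 95.8 and 96.5% in WT cells with DMSO. Samples with and without the drug are far apart in both genotypes (adjusted p = 1.1e-08 and 4.4e-09 in K700E and WT cells). The stop lies 9 bases after the joined exons meet. CDC16 also used an alternative 5' site that adds 166 nt to an exon, at 50.9 ± 2.6% with H3B-8800 and 5.38 ± 0.53% with DMSO in K700E cells, and at 59.2 ± 4.6% with H3B-8800 and 5.47 ± 1.7% with DMSO in WT cells. Its usual 3' site at chr13:114244890 lost use to one 139 nt upstream, and stood at 62.9 ± 4.3% with H3B-8800 and 96.98 ± 1.5% with DMSO in K700E cells, and at 55.9 ± 8.6% with H3B-8800 and 96.1 ± 0.91% with DMSO in WT cells. A 102-nt intron of another CDC16 transcript was retained at 77.7 ± 9.4% with H3B-8800 and 29.6 ± 4.8% with DMSO in K700E cells, and at 73.3 ± 7.9% with H3B-8800 and 23.2 ± 5.7% with DMSO in WT cells.

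The other genes of the axis lost exons and kept introns in the same samples. In CDC27 a 170-nt exon, coding in another transcript, was included at 45.1 ± 5.95% with H3B-8800 and 91.9 ± 1.7% with DMSO in K700E cells, and at 28.3 ± 2.8% with H3B-8800 and 91.7 ± 1.4% with DMSO in WT cells. In CDC23 exon 2 of 16, 73 nt, was included at 57.9 ± 1.9% with H3B-8800 and 99.7 ± 0.102% with DMSO in K700E cells, and at 66 ± 7.9% with H3B-8800 and 99.7 ± 0.11% with DMSO in WT cells. Intron 12 of CDC23, 326 nt, was retained at 62.5 ± 11% with H3B-8800 and 6.14 ± 0.61% with DMSO in K700E cells, and at 51.1 ± 3.1% with H3B-8800 and 3.897 ± 1.2% with DMSO in WT cells. CDC23 also had the largest fall in spliced reads of the axis in both genotypes. ANAPC1 exon 23 of 48, 37 nt, was included at 68.7 ± 5.8% with H3B-8800 and 97.9 ± 0.13% with DMSO in K700E cells, and at 60.5 ± 9.5% with H3B-8800 and 99.1 ± 0.94% with DMSO in WT cells. Loss of the CDC23 or the ANAPC1 exon shifts the frame.

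In CDC20, exon 8 of 10, which keeps the frame, was included at 77.3 ± 1.9% with H3B-8800 and 99.9 ± 0.101% with DMSO in K700E cells, and at 76.9 ± 1.7% with H3B-8800 and 99.9 ± 0.0603% with DMSO in WT cells. The 93-nt intron 1 of CDC20 was retained at 31.2 ± 7.96% with H3B-8800 and 1.51 ± 0.15% with DMSO in K700E cells, and at 35.5 ± 3.7% with H3B-8800 and 1.55 ± 0.48% with DMSO in WT cells. Of its 12 tested events 9 were called in each genotype, against 31.3% and 32% of all events in K700E and WT cells. ESPL1 retained intron 23, 134 nt, at 65.7 ± 3.7% with H3B-8800 and 7.38 ± 0.28% with DMSO in K700E cells, and at 79.1 ± 4.4% with H3B-8800 and 11.8 ± 3.97% with DMSO in WT cells. Its 989-nt exon 18 was included at 45.4 ± 6.4% with H3B-8800 and 90.6 ± 0.92% with DMSO in K700E cells, and at 52.3 ± 4.5% with H3B-8800 and 91.99 ± 1.1% with DMSO in WT cells. With 21 called events of 51 in each genotype, beside the same shares of all events, ESPL1 changed in splicing. Its spliced reads passed in neither genotype without the block. Further calls by the same rule were intron 17 of CDC27 (26.9 points in K700E cells and 22.8 in WT cells), a 5' site of ESPL1 that adds 81 nt to the shortest form (34.1 points in K700E cells and 39.1 in WT cells) and intron 19 of ANAPC1 (11.4 points in K700E cells and 14.03 in WT cells; 9.61 points without K700E H3B-8800 replicate 1, under the 10-point limit).

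**Figure D2:**
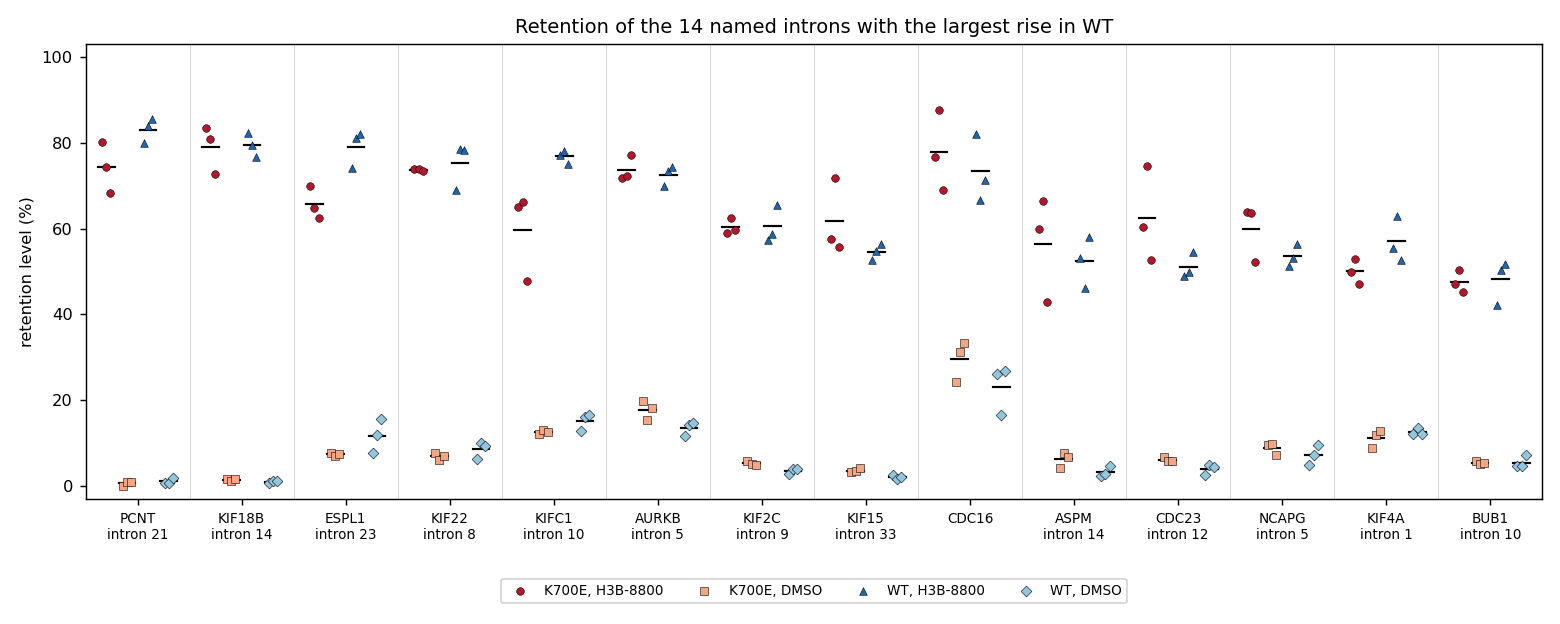
Retention level (%) of the 14 member introns with the largest rise in WT cells among those named in the text, 1 point per sample, ordered within each intron as K700E H3B-8800, K700E DMSO, WT H3B-8800 and WT DMSO; bars mark group means. The samples with H3B-8800 lie above those with DMSO in all 14, which in WT cells was a condition for naming an intron. PCNT intron 21 is at 74.3% in K700E cells with H3B-8800.

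Condensin and topoisomerase genes compact and untangle the chromosomes. Spliced reads of TOP2A, the topoisomerase that separates sister strands, of SMC4, an ATPase of the condensin core, and of NCAPG and NCAPH, non-SMC subunits of condensin, fell in both genotypes. Exons were called as included less in 26 of 56 cases in each genotype, and 11 and 10 of 76 introns were called as retained more in K700E and WT cells (14.5% and 13.2%). Over all genes the shares were 38.5% and 40.3% of exons, beside 46.4% here, and 31.6% and 31.9% of introns.

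TOP2A stood at 661, 559 and 502 RPM in K700E cells with H3B-8800, against 1513, 1107 and 1117 RPM in K700E cells with DMSO. It stood at 471, 466 and 462 RPM in WT cells with H3B-8800, against 949, 948 and 976 RPM in WT cells with DMSO. The log2 changes were -1.11 and -1.04 (SE 0.12, adjusted p = 2.8e-05 and 3.0e-05), and the groups do not overlap. K700E replicate 1 was the highest of its group under both treatments. The log2 changes of SMC4, NCAPG and NCAPH were -0.80, -0.67 and -0.48 in K700E cells and -1.13, -0.55 and -0.89 in WT cells. NCAPD2, also a condensin subunit, fell in K700E cells (log2 change -0.50) and had -0.41 in WT cells, where the call ends with size factors (adjusted p = 0.217). SMC2, the partner of SMC4, had log2 changes of 0.17 and 0.21 and was called as higher under both scalings. With the median over its introns both calls end (adjusted p = 0.193 in K700E cells and 0.0693 in WT cells). Its K700E call ends without any 1 of 5 of the 6 K700E libraries, all but H3B-8800 replicate 3 (adjusted p = 0.0629 to 0.145), and in a fit on those 6 (0.151). Its WT call ends without DMSO replicate 2 (0.0533) or H3B-8800 replicate 3 (0.0608). Both SMC2 calls hold with the replicate block (0.0017 in K700E cells and 3.1e-04 in WT cells).

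Exon 32 of 35 of TOP2A, 44 nt on the minus strand at chr17:40392068-40392111, is printed because it gave the smallest adjusted p of the named member exons in both genotypes; the capitals mark the exon, and in the second line the stop codon.
TOP2A exon 32: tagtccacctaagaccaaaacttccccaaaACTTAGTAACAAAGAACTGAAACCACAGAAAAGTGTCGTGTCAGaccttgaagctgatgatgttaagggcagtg
TOP2A without exon 32: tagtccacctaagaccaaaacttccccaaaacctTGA
Inclusion was 21, 22.7 and 22.3% in K700E cells with H3B-8800, against 97.3, 97.3 and 96.9% in K700E cells with DMSO. It was 18.01, 18.5 and 16.7% in WT cells with H3B-8800, against 96.8, 98.01 and 97.7% in WT cells with DMSO. Each group holds together within 2 points, and the groups differ by 75.2 points in K700E cells and 79.8 in WT cells (adjusted p = 1.5e-09 and 9.5e-10). Without the exon a stop lies 4 bases after the junction. Intron 33 of TOP2A, 1341 nt, was retained at 18.1 ± 0.37% with H3B-8800 and 1.47 ± 0.095% with DMSO in K700E cells, and at 18.8 ± 2.2% with H3B-8800 and 2.44 ± 0.36% with DMSO in WT cells.

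All condensin genes lost at least 1 exon. SMC4 exon 2, 144 nt and partly coding, was included at 17.1 ± 6.2% with H3B-8800 and 83.4 ± 9.04% with DMSO in K700E cells, and at 25.9 ± 6.6% with H3B-8800 and 78.6 ± 6.3% with DMSO in WT cells. The SMC2 exon 7, 45 nt and in frame, was included at 52.5 ± 5.5% with H3B-8800 and 99.8 ± 0.21% with DMSO in K700E cells, and at 49.9 ± 1.2% with H3B-8800 and 99.8 ± 0.067% with DMSO in WT cells. A 3' site of SMC2 42 nt upstream of the usual one was used at 35.7 ± 2.9% with H3B-8800 and 3.35 ± 0.74% with DMSO in K700E cells, and at 36.2 ± 2.03% with H3B-8800 and 3.61 ± 0.5% with DMSO in WT cells. Both ATPase genes thus changed in splicing, while their spliced reads were called in opposite directions. The NCAPG exon 19 of 21, 87 nt, was included at 43.01 ± 8.2% with H3B-8800 and 93.9 ± 0.61% with DMSO in K700E cells, and at 39.7 ± 7.3% with H3B-8800 and 94.6 ± 1.3% with DMSO in WT cells. Intron 5 of NCAPG, 1902 nt, was retained at 59.9 ± 6.7% with H3B-8800 and 8.84 ± 1.4% with DMSO in K700E cells, and at 53.6 ± 2.6% with H3B-8800 and 7.29 ± 2.4% with DMSO in WT cells. The NCAPG exon keeps the frame, in contrast to the exons of NCAPH and NCAPD2. Exon 11 of 18 of NCAPH, 107 nt, was included at 71.5 ± 5.7% with H3B-8800 and 98.95 ± 0.93% with DMSO in K700E cells, and at 63.6 ± 1.7% with H3B-8800 and 99.4 ± 0.26% with DMSO in WT cells. Exon 3 of 32 of NCAPD2, 76 nt, was included at 70.1 ± 4.3% with H3B-8800 and 99.8 ± 0.18% with DMSO in K700E cells, and at 65.5 ± 2.3% with H3B-8800 and 99.8 ± 0.15% with DMSO in WT cells.

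Further calls in the same genes were intron 25 of NCAPD2 (20.4 points in K700E cells and 21.97 in WT cells), intron 15 of SMC4 (17.8 points in K700E cells and 16.2 in WT cells) and an NCAPG 3' site 65 nt upstream of the usual one (19.6 points in K700E cells and 11.5 in WT cells). Sites that lengthen an exon were called in SMC4 at the 3' side (40.9 points in K700E cells and 33.1 in WT cells) and in NCAPG at the 5' side (24.97 points in K700E cells and 28.9 in WT cells). In WT cells alone an SMC4 5' site reached 10.7 points, a call that ends without WT DMSO replicate 1 (9.44 points) or WT H3B-8800 replicate 3 (8.81 points), against 1.99 points in K700E cells. An NCAPH 3' site 33 nt downstream of the most used one changed by -12.7 points in WT cells, against -3.19 in K700E cells.

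Centromere genes and chromosomal passengers mostly had more spliced reads with the drug. CENPA, the histone that marks centromeres, CENPF, a large kinetochore protein, and INCENP and BIRC5 (survivin), the scaffold and a targeting subunit of the passenger complex, rose in both genotypes. CENPE, a kinetochore motor, had a log2 change of -0.45 in K700E cells and -0.40 in WT cells, and both calls end with size factors (adjusted p = 0.0662 and 0.268). CDCA8 (borealin), the remaining passenger, had -0.08 in K700E cells and 0.16 in WT cells, with adjusted p of 0.457 and 0.112, and 0.004602 in WT cells with the replicate block. With size factors it was called as higher in WT cells (0.43, adjusted p = 1.4e-04), and the K700E value turns to 0.14, not called (0.0756).

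CENPA stood at 52.4, 57.9 and 56.3 RPM in K700E cells with H3B-8800, against 36.9, 32.5 and 32.5 RPM in K700E cells with DMSO. It stood at 66.4, 64.8 and 59.6 RPM in WT cells with H3B-8800, against 32.1, 32.6 and 30.3 RPM in WT cells with DMSO. No treated sample reached down to the DMSO range, and the log2 changes were 0.71 and 1.01 (SE 0.08, adjusted p = 4.2e-05 and 2.3e-06). The log2 changes of CENPF, INCENP and BIRC5 were 0.80, 0.59 and 0.42 in K700E cells and 0.96, 0.60 and 0.58 in WT cells. These genes with more spliced reads still lost exons or kept introns.

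The in-frame exon 3 of 5 of CENPA, 78 nt, was included at 51.3 ± 3.6% with H3B-8800 and 93.7 ± 0.43% with DMSO in K700E cells, and at 54.3 ± 2.7% with H3B-8800 and 90.4 ± 2.1% with DMSO in WT cells. The exon 3 of 4 of BIRC5, 118 nt, whose loss shifts the frame, was included at 63.9 ± 0.67% with H3B-8800 and 89.5 ± 0.73% with DMSO in K700E cells, and at 61.8 ± 2.1% with H3B-8800 and 89.5 ± 0.49% with DMSO in WT cells. A 459-nt exon of CENPF was included at 74.2 ± 3.9% with H3B-8800 and 99.8 ± 0.17% with DMSO in K700E cells, and at 72.6 ± 2.1% with H3B-8800 and 99.6 ± 0.35% with DMSO in WT cells. In these 3 genes the form with the exon remained the more frequent one on average. INCENP retained intron 12, 339 nt, at 44.03 ± 4.9% with H3B-8800 and 2.06 ± 0.32% with DMSO in K700E cells, and at 44.8 ± 3.7% with H3B-8800 and 2.79 ± 0.33% with DMSO in WT cells. Its 809-nt exon 4 was included at 85.03 ± 3.8% with H3B-8800 and 99.95 ± 0.081% with DMSO in K700E cells, and at 84.9 ± 4.3% with H3B-8800 and 99.4 ± 0.51% with DMSO in WT cells. CENPE had 17 and 18 called events of 38 in K700E and WT cells, the most of this group. Over all events 31.3% and 32% were called. Its in-frame exon 3, 90 nt, was included at 38.5 ± 5.6% with H3B-8800 and 99.2 ± 0.72% with DMSO in K700E cells, and at 33.8 ± 1.95% with H3B-8800 and 99.7 ± 0.26% with DMSO in WT cells. Its intron 10 was retained at 28.2 ± 5.2% with H3B-8800 and 0.543 ± 0.52% with DMSO in K700E cells, and at 33.5 ± 3.3% with H3B-8800 and 0.453 ± 0.397% with DMSO in WT cells. A CENPE 3' site 18 nt upstream of the usual one gained 11.2 points in K700E cells and 11.7 in WT cells. CDCA8, whose exon 7 keeps the frame, included it at 82.7 ± 1.04% with H3B-8800 and 99.1 ± 0.14% with DMSO in K700E cells, and at 83.8 ± 1.4% with H3B-8800 and 99.02 ± 0.42% with DMSO in WT cells. Its intron 4 was retained at 24.2 ± 8.8% with H3B-8800 and 3.31 ± 0.31% with DMSO in K700E cells, and at 19.3 ± 1.9% with H3B-8800 and 2.33 ± 0.695% with DMSO in WT cells.

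Of the mitotic kinases, TTK, which drives the checkpoint, PLK1, which acts from spindle assembly to cytokinesis, and AURKA, which matures the poles, rose in both genotypes. BUB1, a checkpoint kinase at kinetochores, fell in WT cells. TTK stood at 238, 191 and 199 RPM in K700E cells with H3B-8800, against 136, 98.6 and 126 RPM in K700E cells with DMSO. It stood at 217, 214 and 229 RPM in WT cells with H3B-8800, against 123, 121 and 127 RPM in WT cells with DMSO. The groups do not overlap in either genotype. The log2 changes of TTK, PLK1 and AURKA were 0.81, 0.40 and 0.33 in K700E cells and 0.83, 0.64 and 0.45 in WT cells. BUB1 had a log2 change of -0.75 in WT cells and -0.45 in K700E cells, where size factors end the call (adjusted p = 0.0701). The K700E call of AURKA, whose treated and DMSO samples overlap there, ends without DMSO replicate 2 (adjusted p = 0.0776), H3B-8800 replicate 1 (0.0544) or H3B-8800 replicate 3 (0.0709), and in a fit on the 6 K700E samples (0.0914). It holds with the replicate block (5.7e-05). AURKB, the kinase of the passenger complex, had -0.33 and -0.49, and size factors end both calls (adjusted p = 0.317 and 0.0624), as does leaving out K700E DMSO replicate 2 or fitting the 6 K700E samples alone for the K700E call (0.0531 and 0.0564). NEK2, which parts the centrosomes, had 0.19 and 0.25. It passed in WT cells (adjusted p = 0.0479), a call that ends without any 1 of the 6 WT libraries (0.0535 to 0.164), with a minimum mean of 10 reads (0.0506) or with the median over its introns (0.249), and in K700E cells with the replicate block (0.00535) or size factors (0.00103). The NEK2 call in WT cells holds with the block (9.7e-04). PLK4, which starts centriole duplication, had 0.14 and 0.03 and passed in K700E cells with the block (adjusted p = 0.01205), and as higher in both genotypes with size factors (log2 changes 0.35 and 0.30, adjusted p = 0.00507 and 0.0106).

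In PLK4 the exon with the largest loss was exon 9 of 16, 103 nt on the plus strand at chr4:127891579-127891681, shown with 30 bases of each neighbour and then joined without it, the stop in capitals 48 bases on.
PLK4 exon 9: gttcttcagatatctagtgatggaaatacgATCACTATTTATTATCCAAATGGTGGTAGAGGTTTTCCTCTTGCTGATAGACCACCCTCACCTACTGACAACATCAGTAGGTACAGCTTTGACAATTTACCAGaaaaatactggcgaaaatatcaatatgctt
PLK4 without exon 9: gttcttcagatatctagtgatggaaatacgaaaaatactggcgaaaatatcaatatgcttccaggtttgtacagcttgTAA
Inclusion was 28.8, 26.5 and 39.8% in K700E cells with H3B-8800, against 97.6, 99.1 and 97.5% in K700E cells with DMSO. It was 20.1, 22.9 and 18.9% in WT cells with H3B-8800, against 97.4, 98.2 and 97% in WT cells with DMSO. The samples separate by treatment in both genotypes, in WT cells by the choice of the event (adjusted p = 5.5e-08 and 3.1e-08).

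AURKB had 11 of its 18 tested events called in each genotype, against 31.3% and 32% of all events in K700E and WT cells. One is a 3' site in intron 5, at chr17:8206934 on the minus strand, 46 nt upstream of the usual site. Its surroundings are printed because the site was little used without the drug. Capitals start at the first base of the longer exon.
AURKB 3' site: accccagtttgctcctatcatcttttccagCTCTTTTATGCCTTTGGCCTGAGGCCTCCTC
The site was used at 44, 39.4 and 58.3% in K700E cells with H3B-8800, against 5.16, 3.27 and 4.63% in K700E cells with DMSO. It was used at 34.03, 62.7 and 41.3% in WT cells with H3B-8800, against 3.36, 4.62 and 3.59% in WT cells with DMSO. Use was above the DMSO range in each treated sample, with a wide spread among them. Intron 5, 287 nt, holds this site and was retained at 73.7 ± 2.98% with H3B-8800 and 17.8 ± 2.3% with DMSO in K700E cells, and at 72.5 ± 2.3% with H3B-8800 and 13.6 ± 1.6% with DMSO in WT cells. Both events share the reads at that end. A 49-nt AURKB exon at the start of the coding part was included at 21.3 ± 2.4% with H3B-8800 and 77.97 ± 0.86% with DMSO in K700E cells, and at 20.8 ± 2.8% with H3B-8800 and 87.4 ± 1.8% with DMSO in WT cells.

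The remaining kinases differed in what changed. AURKA had a 98-nt noncoding exon at 2.99 ± 0.61% with H3B-8800 and 23.2 ± 3.5% with DMSO in K700E cells, and at 1.77 ± 0.28% with H3B-8800 and 20.6 ± 1.3% with DMSO in WT cells. BUB1 retained intron 10 at 47.7 ± 2.6% with H3B-8800 and 5.45 ± 0.44% with DMSO in K700E cells, and at 48.2 ± 5.1% with H3B-8800 and 5.49 ± 1.5% with DMSO in WT cells. NEK2 retained its last intron, 3453 nt, at 41.7 ± 5.6% with H3B-8800 and 14.3 ± 1.3% with DMSO in K700E cells, and at 49.4 ± 3.2% with H3B-8800 and 14.9 ± 1.5% with DMSO in WT cells. The BUB1 and NEK2 introns lie between coding exons. TTK exon 18, 81 nt, was included at 84.6 ± 2.8% with H3B-8800 and 100 ± 0% with DMSO in K700E cells, and at 83.9 ± 2.1% with H3B-8800 and 99.7 ± 0.51% with DMSO in WT cells. PLK1 had 1 called event in K700E cells and none in WT cells, of 6 tested, against 31.3% and 32% of all events. Its intron 3 was retained at 13.4 ± 2.8% with H3B-8800 and 1.85 ± 0.41% with DMSO in K700E cells, and at 9.297 ± 1.5% with H3B-8800 and 1.44 ± 0.56% with DMSO in WT cells, which is under the 10-point limit. Further calls were intron 8 of AURKA (12.6 points in K700E cells and 10.4 in WT cells), intron 11 of PLK4 (24.8 points in K700E cells and 19.2 in WT cells), intron 8 of TTK (14.9 points in K700E cells and 16.98 in WT cells) and a 5' site of AURKB (-14.4 points in K700E cells and -14.3 in WT cells). In BUB1 the usual 3' site of an exon changed by -26.5 points in K700E cells and -25.7 in WT cells, and a site 41 nt upstream gained use. The in-frame exon 2 of BUB1 changed by -10.3 points in K700E cells and -11.02 in WT cells, calls that end without K700E H3B-8800 replicate 3 (-9.04 points) or WT H3B-8800 replicate 2 (-9.56 points).

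The checkpoint proteins that hold CDC20 differed from one another. BUB1B (BUBR1) fell, with 165 ± 25 RPM with H3B-8800 and 327 ± 31 RPM with DMSO in K700E cells, and 141 ± 26 RPM with H3B-8800 and 292 ± 17 RPM with DMSO in WT cells (log2 changes -0.99 and -1.07). BUB3 rose, with log2 changes of 0.37 and 0.43. In K700E cells its treated and DMSO samples overlap, and the call ends without DMSO replicate 1 (adjusted p = 0.0953), H3B-8800 replicate 2 (0.083) or H3B-8800 replicate 3 (0.0931), and in a fit on the 6 K700E samples (0.113). The K700E call of BUB3 holds with the replicate block (adjusted p = 2.7e-06). MAD2L1 had 0.02 and -0.12, neither passing (adjusted p = 0.831 and 0.176), and with size factors it was called as higher in K700E cells (0.24, adjusted p = 0.0366) while the WT value turns to 0.15, not called (0.169). BUB1B retained intron 19 at 46.3 ± 2.4% with H3B-8800 and 6.62 ± 0.495% with DMSO in K700E cells, and at 49.5 ± 2.8% with H3B-8800 and 7.41 ± 1.5% with DMSO in WT cells. The exon after it, exon 20 of 23, was included at 76.4 ± 9.6% with H3B-8800 and 99.8 ± 0.22% with DMSO in K700E cells, and at 73.9 ± 5.6% with H3B-8800 and 99.01 ± 0.44% with DMSO in WT cells. The loss of exon 20 shifts the frame. BUB3 retained its last intron at 38.7 ± 6.1% with H3B-8800 and 21.3 ± 0.68% with DMSO in K700E cells, and at 39.5 ± 2.4% with H3B-8800 and 14.97 ± 2.2% with DMSO in WT cells.

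Kinesins were split in their spliced reads. KIF15, which backs up the main pole-separating motor, KIF2A, a microtubule depolymerase, and KIF4A, a motor on chromosome arms, fell in both genotypes, and KIFC1, which focuses spindle poles, fell in WT cells. KIF18B and KIF18A, which act at microtubule plus ends, rose in both. Exons were called as included less in 44 of 115 cases in K700E cells and 49 in WT cells, and introns as retained more in 52 and 42 of 149. The exon shares, 38.3% and 42.6%, stand beside 38.5% and 40.3% of all exons, and the intron shares, 34.9% and 28.2%, beside 31.6% and 31.9% of all introns.

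KIF18B had the largest rise of the 49 genes. It stood at 209.9, 184 and 208 RPM in K700E cells with H3B-8800, against 78.8, 76.1 and 82.1 RPM in K700E cells with DMSO. It stood at 137, 207 and 213 RPM in WT cells with H3B-8800, against 57.2, 76.6 and 82.6 RPM in WT cells with DMSO, with WT replicate 1 the lowest under both treatments. The groups do not overlap, and the log2 changes were 1.34 and 1.36 (SE 0.17, adjusted p = 7.9e-05 and 5.0e-05). Its splicing changed at the same time. Exon 4 of 16, 105 nt on the minus strand at chr17:44934831-44934935, codes for part of the motor domain and keeps the frame when lost; it is printed in capitals between its neighbours.
KIF18B exon 4: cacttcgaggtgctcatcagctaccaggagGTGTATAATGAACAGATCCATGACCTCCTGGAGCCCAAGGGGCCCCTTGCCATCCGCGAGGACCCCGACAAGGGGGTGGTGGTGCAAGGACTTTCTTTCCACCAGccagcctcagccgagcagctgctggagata
Inclusion was 20.4, 16.1 and 19.8% in K700E cells with H3B-8800, against 92.5, 93.9 and 92.04% in K700E cells with DMSO. It was 22.1, 23.3 and 22.5% in WT cells with H3B-8800, against 96.5, 93.9 and 94.8% in WT cells with DMSO. Intron 14 of KIF18B, 489 nt, was retained at 83.5, 80.9 and 72.8% in K700E cells with H3B-8800, against 1.76, 1.08 and 1.66% in K700E cells with DMSO. It was retained at 82.3, 79.5 and 76.6% in WT cells with H3B-8800, against 0.68, 1.17 and 1.26% in WT cells with DMSO. Both events separate the treated samples from those with DMSO in both genotypes, in WT cells by the choice of the events. The usual one of 2 competing KIF18B 3' sites was used at 98.2 ± 0.64% with H3B-8800 and 80.2 ± 1.6% with DMSO in K700E cells, and at 98.5 ± 0.13% with H3B-8800 and 82.2 ± 0.98% with DMSO in WT cells.

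The log2 changes of KIF15, KIF2A and KIF4A were -1.06, -1.07 and -0.54 in K700E cells and -1.23, -1.08 and -0.82 in WT cells. KIF18A had 0.63 and 0.77, and KIFC1 had -0.22 and -0.59, the K700E value with an adjusted p of 0.0722, or 0.00141 with the replicate block. Spliced reads of KIF11, the main pole-separating motor, KIF20B, of the midbody, and KIF2C, a depolymerase at centromeres, had log2 changes of -0.25, -0.33 and -0.44 in K700E cells and -0.16, -0.22 and -0.23 in WT cells. The K700E values passed with the total-read scaling and not with size factors, under which the WT values turn to 0.10, 0.05 and 0.04. With the replicate block the WT values passed too (adjusted p = 0.00296, 0.0114 and 0.00157). Fitted on the 6 samples of 1 genotype, the WT values passed (0.0331, 0.00847 and 0.0197) and the K700E values did not (0.12, 0.112 and 0.093), and the WT value of KIF11 also passed with the median over its introns (0.0434). The K700E call of KIF11 ends without DMSO replicate 1 or 3 (0.122 and 0.0642) or H3B-8800 replicate 2 or 3 (0.128 and 0.0724). Those of KIF20B and KIF2C end without DMSO replicate 1 (0.0903 and 0.0865) or H3B-8800 replicate 3 (0.0868 and 0.0791). The K700E calls of KIF11 and KIF20B hold with the block (1.6e-04 and 0.001007). KIF14, of the cleavage furrow, KIF20A, which carries passengers to the midzone, KIF22, on chromosome arms, and KIF23, of the central spindle, passed in neither genotype with the total-read scaling. Their log2 changes lay between -0.27 and 0.22 in K700E cells and between -0.21 and 0.12 in WT cells. With size factors KIF20A and KIF23 were called as higher in both genotypes (log2 changes 0.44 and 0.27 in K700E cells and 0.29 and 0.39 in WT cells, adjusted p = 8.8e-04, 0.00711, 0.00844 and 5.6e-04), and KIF22 in K700E cells (0.40, adjusted p = 0.02196). Fitted on the 6 WT samples alone, KIF14 and KIF23 passed there (adjusted p = 0.0407 and 0.0432), and with the median over a gene's introns KIF22 did (0.0457). With the replicate block KIF14, KIF20A and KIF22 passed in K700E cells (adjusted p = 2.8e-04, 0.00117 and 0.0386), and KIF14 and KIF23 in WT cells (0.00148 and 0.0134). KIF14 and KIF20A also passed in K700E cells without H3B-8800 replicate 1 and DMSO replicate 1 of that genotype (0.025 and 0.0334).

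KIF2C had the most called events among the kinesins, 23 of 31 in each genotype. Of all events 31.3% were called in K700E cells and 32% in WT cells. Its 91-nt intron 9 was retained at 60.3 ± 1.9% with H3B-8800 and 5.27 ± 0.48% with DMSO in K700E cells, and at 60.6 ± 4.4% with H3B-8800 and 3.62 ± 0.64% with DMSO in WT cells. Within it a 3' site 32 nt upstream of the usual one was used at 30.8 ± 3.9% with H3B-8800 and 0.713 ± 0.41% with DMSO in K700E cells, and at 27.3 ± 5.4% with H3B-8800 and 0.9 ± 0.53% with DMSO in WT cells. These events share reads. KIF2C exon 20 of 21, 124 nt, was included at 50.1 ± 3.1% with H3B-8800 and 99.7 ± 0.12% with DMSO in K700E cells, and at 43.2 ± 0.66% with H3B-8800 and 99.8 ± 0.12% with DMSO in WT cells. KIF15 exon 32, 38 nt, was included at 42.98 ± 4.97% with H3B-8800 and 99.5 ± 0.51% with DMSO in K700E cells, and at 38.01 ± 3.6% with H3B-8800 and 99.7 ± 0.35% with DMSO in WT cells. The loss of either exon shifts the frame. KIF15 retained intron 33 at 61.7 ± 8.9% with H3B-8800 and 3.62 ± 0.47% with DMSO in K700E cells, and at 54.6 ± 1.9% with H3B-8800 and 2.11 ± 0.41% with DMSO in WT cells.

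The kinesins of the midzone and furrow lost single exons to a large extent. KIF20A exon 13 of 19 was included at 48.3 ± 7% with H3B-8800 and 98.2 ± 0.49% with DMSO in K700E cells, and at 59.7 ± 9.1% with H3B-8800 and 98.5 ± 0.25% with DMSO in WT cells. KIF14 exon 28 of 30 was included at 51.3 ± 5.7% with H3B-8800 and 98.9 ± 0.48% with DMSO in K700E cells, and at 45.2 ± 4.8% with H3B-8800 and 98.3 ± 0.92% with DMSO in WT cells. KIF23 exon 21 of 23 was included at 36.3 ± 0.66% with H3B-8800 and 90.3 ± 2.04% with DMSO in K700E cells, and at 32.4 ± 2.5% with H3B-8800 and 92.01 ± 0.73% with DMSO in WT cells. Of these 3, the KIF23 exon shifts the frame. KIF18A exon 5, in frame, was included at 55.1 ± 4.97% with H3B-8800 and 96.8 ± 0.92% with DMSO in K700E cells, and at 57.6 ± 1.9% with H3B-8800 and 97.1 ± 0.52% with DMSO in WT cells. KIF22 retained intron 8 at 73.7 ± 0.23% with H3B-8800 and 6.94 ± 0.74% with DMSO in K700E cells, and at 75.3 ± 5.5% with H3B-8800 and 8.58 ± 2.01% with DMSO in WT cells. KIFC1 retained its last intron at 59.6 ± 10% with H3B-8800 and 12.6 ± 0.43% with DMSO in K700E cells, and at 76.8 ± 1.5% with H3B-8800 and 15.2 ± 1.99% with DMSO in WT cells. Both introns are long, at 2720 and 2770 nt. KIF2A retained intron 5 at 20.3 ± 6.5% with H3B-8800 and 2.08 ± 1.2% with DMSO in K700E cells, and at 27.9 ± 6% with H3B-8800 and 1.31 ± 0.75% with DMSO in WT cells. KIF4A retained intron 1, which lies outside its coding part, at 50 ± 2.9% with H3B-8800 and 11.2 ± 2.1% with DMSO in K700E cells, and at 57.02 ± 5.3% with H3B-8800 and 12.6 ± 0.81% with DMSO in WT cells.

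KIF11 had 4 called events in K700E cells and 1 in WT cells, of 16 tested, against 31.3% and 32% of all events. A KIF11 3' site 36 nt upstream of the usual one was used at 15.6 ± 7.2% with H3B-8800 and 1.29 ± 0.28% with DMSO in K700E cells, and at 11.4 ± 2.3% with H3B-8800 and 0.343 ± 0.17% with DMSO in WT cells, a WT call that ends without H3B-8800 replicate 2 (9.81 points). Its exon 17 changed by -10.3 points in K700E cells and -8.77 in WT cells and its intron 14 by 11.5 points in K700E cells and 5.83 in WT cells, K700E calls that end without H3B-8800 replicate 2 (-8.21 and 8.72 points). Further kinesin calls were exon 10 of KIF22 (-47.5 points in K700E cells and -38.1 in WT cells), exon 16 of KIF2A (-21.1 points in K700E cells and -26 in WT cells), exon 5 of KIFC1 (-24.2 points in K700E cells and -22.97 in WT cells) and intron 10 of KIF20A (16.9 points in K700E cells and 14.8 in WT cells). Upstream 3' sites gained use in KIF22 (50 nt; 13.3 points in K700E cells and 14.9 in WT cells) and in KIF15, where the usual site changed by -17.3 points in K700E cells and -17.6 in WT cells and one 22 nt upstream gained use. Intron 7 of KIF14 and intron 21 of KIF23 were called in K700E cells alone (11.3 points in K700E cells and 4.74 in WT cells for KIF14, 13.2 points in K700E cells and 8.73 in WT cells for KIF23), and without WT H3B-8800 replicate 1 the KIF23 intron was called in WT cells as well (10.8 points). A KIF20B 5' site was called in WT cells alone (6.04 points in K700E cells and 12.1 in WT cells). The differences between genotypes in these events did not pass a test of their own.

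KIF20B lost its 37-nt exon 7, which was included at 33.96 ± 3.5% with H3B-8800 and 98.7 ± 1.2% with DMSO in K700E cells, and at 28.5 ± 1.5% with H3B-8800 and 96.7 ± 4.5% with DMSO in WT cells. At the end of its intron 13 a 3' site 66 nt upstream of the usual one, at chr10:89723898 on the plus strand, came into use. Capitals start at the first base of the longer exon.
KIF20B 3' site: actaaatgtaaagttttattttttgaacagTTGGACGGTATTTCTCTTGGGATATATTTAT
It was used at 42.4, 33.3 and 33.98% in K700E cells with H3B-8800, against 0.71, 1.09 and 0.76% in K700E cells with DMSO. It was used at 31.7, 38.8 and 35.6% in WT cells with H3B-8800, against 0, 0 and 0% in WT cells with DMSO. WT cells with DMSO show no use in any sample, and the treated samples of the genotypes overlap. The site lies in intron 13, which was retained at 54.1 ± 3.3% with H3B-8800 and 3.84 ± 1.04% with DMSO in K700E cells, and at 36.99 ± 7.1% with H3B-8800 and 4.57 ± 1.4% with DMSO in WT cells. Both events share reads.

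**Figure D3:**
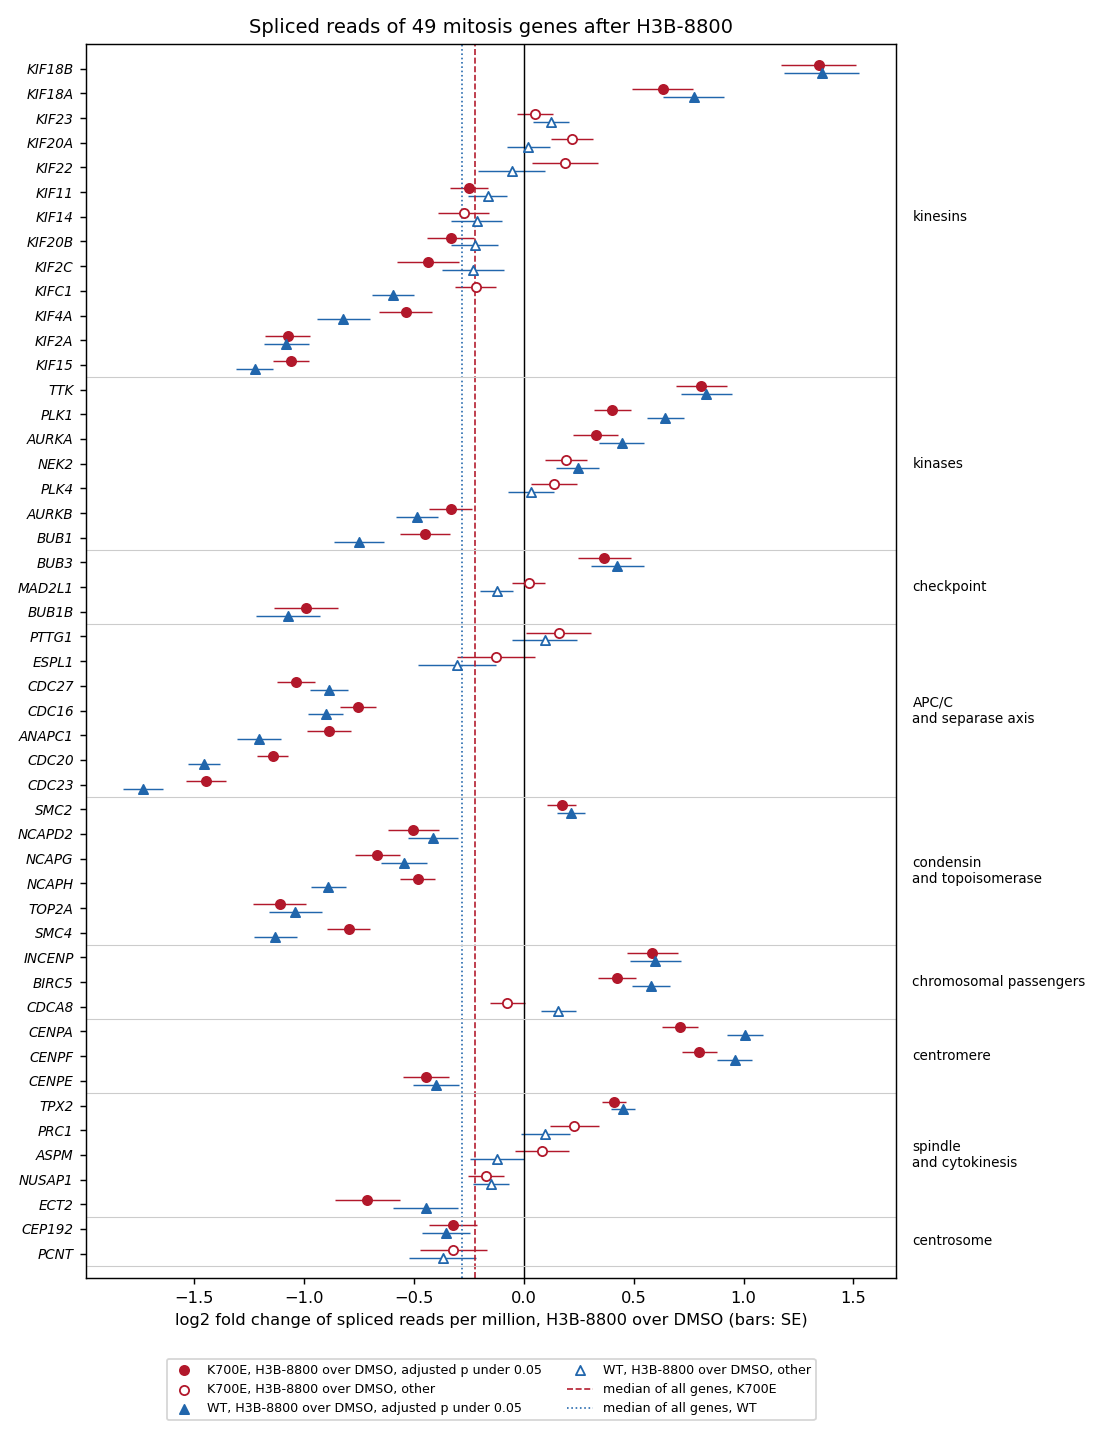
Log2 fold change of spliced reads (RPM), H3B-8800 over DMSO, for the 49 genes by role, K700E cells as red circles above WT cells as blue triangles, with bars for the standard error; filled symbols passed an adjusted p of 0.05 and the vertical lines mark the median of all genes, -0.22 and -0.28. KIF18B lies highest at 1.34 and 1.36 and CDC23 lowest at -1.45 and -1.73; with size factors values shift up, and those of MAD2L1, KIF11, KIF14, KIF20B, KIF22, KIF2C, ASPM and NUSAP1 in WT cells and of ESPL1, CDCA8 and NUSAP1 in K700E cells change sign.

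Among the spindle and cytokinesis genes TPX2, which activates AURKA on microtubules, rose in both genotypes, with log2 changes of 0.41 and 0.45. ECT2, the exchange factor that starts the cleavage furrow, fell in K700E cells (-0.71) and had -0.45 in WT cells. Size factors end the WT call (adjusted p = 0.249), as does leaving out WT DMSO replicate 3 (0.0732) or WT H3B-8800 replicate 1 or 2 (0.0817 and 0.0514). PRC1, which bundles the midzone, ASPM, of the spindle poles, and NUSAP1, a spindle protein, had log2 changes of 0.23, 0.08 and -0.17 in K700E cells and 0.10, -0.12 and -0.15 in WT cells, none of which passed with the total-read scaling. With size factors PRC1 was called as higher in both genotypes (0.45 in K700E cells and 0.37 in WT cells, adjusted p = 0.00192 and 0.00521) and ASPM in K700E cells (0.30, adjusted p = 0.0303). With the median over a gene's introns NUSAP1 was called as lower in both genotypes (adjusted p = 0.0135 and 0.0175), and PRC1 as higher in K700E cells (0.0455). With the replicate block PRC1 and NUSAP1 passed in K700E cells (adjusted p = 0.00102 and 0.00134) and NUSAP1 in WT cells (0.00322), although its sign turns with size factors (0.05 and 0.12). PRC1 and NUSAP1 also passed in K700E cells without DMSO replicate 1 and H3B-8800 replicate 1 of that genotype (0.0194 and 0.0319).

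ECT2 exon 17 of 25, 97 nt, was included at 30.2, 29.5 and 46.7% in K700E cells with H3B-8800, against 99.6, 99.6 and 99.6% in K700E cells with DMSO. In WT cells it averaged 24.3 ± 2.3% with H3B-8800 and 99.6 ± 0.27% with DMSO. Its loss shifts the frame, and the treated samples lie far below in both genotypes, K700E replicate 3 least so. A 163-nt exon of PRC1 was included at 21.1 ± 0.97% with H3B-8800 and 91.3 ± 1.3% with DMSO in K700E cells, and at 23.8 ± 6.2% with H3B-8800 and 89.1 ± 1.6% with DMSO in WT cells. ASPM retained its 86-nt intron 14 at 56.4 ± 12% with H3B-8800 and 6.23 ± 1.8% with DMSO in K700E cells, and at 52.5 ± 5.9% with H3B-8800 and 3.29 ± 1.2% with DMSO in WT cells. In both genes the treated and DMSO samples do not overlap, in WT cells by the choice of the events. NUSAP1 exon 9 was included at 78.4 ± 2.6% with H3B-8800 and 94.2 ± 0.49% with DMSO in K700E cells, and at 75 ± 1.5% with H3B-8800 and 92.6 ± 0.38% with DMSO in WT cells. The noncoding exon 2 of TPX2 was included at 77.2 ± 2.2% with H3B-8800 and 93.5 ± 1.1% with DMSO in K700E cells, and at 78.3 ± 1.9% with H3B-8800 and 95.3 ± 0.95% with DMSO in WT cells. Further calls were exon 10 and a 5' site of ASPM (-38.6 points in K700E cells and -36.04 in WT cells for the exon, 19.1 points in K700E cells and 20.8 in WT cells for the site), intron 13 of PRC1 (28.7 points in K700E cells and 37.9 in WT cells), intron 4 of ECT2 (28.1 points in K700E cells and 19.2 in WT cells) and a NUSAP1 3' site (23.1 points in K700E cells and 21.9 in WT cells). An ECT2 3' site at chr3:172760156 was called in WT cells (-9.55 points in K700E cells and -13.6 in WT cells), and in K700E cells as well without DMSO replicate 2 (-10.1 points) or H3B-8800 replicate 3 (-11.8 points) of that genotype.

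The centrosome genes PCNT, the scaffold of the matrix around centrioles, and CEP192, which recruits PLK1 and AURKA to it, had called events in both genotypes. PCNT had log2 changes of -0.32 and -0.37, neither passing in the fit over all 4 groups (adjusted p = 0.102 and 0.0579) and both with the replicate block (0.001101 and 3.6e-04). Without K700E H3B-8800 replicate 3 it passed in K700E cells (0.02), and in WT cells it passed in a fit on the 6 WT samples (0.00136) and with the median over its introns (0.047). CEP192 had -0.32 and -0.35, calls that end with size factors (adjusted p = 0.323 and 0.4201). The K700E call also ends without DMSO replicate 1 (0.101) or H3B-8800 replicate 2 or 3 (0.078 and 0.0833), in a fit on the 6 K700E samples (0.0846) and with the median over its introns (0.0824), and the WT call without H3B-8800 replicate 1 (0.0667). Both CEP192 calls hold with the replicate block (2.2e-04 in K700E cells and 9.4e-05 in WT cells). In K700E cells 20 of 55 tested events of PCNT and 18 of 60 of CEP192 were called (36.4% and 30%), against 31.3% of all events.

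PCNT intron 21, 5888 nt, was retained at 80.1, 74.4 and 68.3% in K700E cells with H3B-8800, against 0, 1.05 and 0.86% in K700E cells with DMSO. In WT cells the retention was 79.9, 83.8 and 85.5% with H3B-8800 and 0.76, 0.72 and 1.87% with DMSO. It is the longest of the named introns, and no sample with DMSO exceeded 1.87%. An 18-nt PCNT exon at chr21:46398238-46398255 was included at 15.7 ± 1.4% with H3B-8800 and 96.5 ± 3.3% with DMSO in K700E cells, and at 13.9 ± 3.4% with H3B-8800 and 98.7 ± 2.3% with DMSO in WT cells. The CEP192 exon with the largest loss was exon 26 of 45, 93 nt on the plus strand at chr18:13069089-13069181. It keeps the frame and is printed in capitals between its neighbours.
CEP192 exon 26: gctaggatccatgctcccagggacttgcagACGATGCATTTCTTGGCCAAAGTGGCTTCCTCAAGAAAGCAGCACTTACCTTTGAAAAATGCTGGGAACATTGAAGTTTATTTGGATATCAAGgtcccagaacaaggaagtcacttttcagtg
Inclusion was 24.5, 20.5 and 20.4% in K700E cells with H3B-8800, against 97.9, 97.4 and 96.7% in K700E cells with DMSO. It was 20.7, 18.5 and 26.9% in WT cells with H3B-8800, against 98.9, 97.5 and 98.8% in WT cells with DMSO. Samples with and without the drug lie far apart in both genotypes. The intron before it, 97 nt, was retained at 14.7 ± 4.7% with H3B-8800 and 2.06 ± 0.095% with DMSO in K700E cells, and at 15.4 ± 3.3% with H3B-8800 and 1.59 ± 0.86% with DMSO in WT cells. A pair of CEP192 sites 4 nt from their neighbours, a 3' site and a 5' site, were called in K700E cells, at 12.8 and -13.9 points, and not in WT cells, at 13.05 and -12.3 points. The K700E call of the 3' site ends without any 1 of the 6 K700E libraries (adjusted p = 0.0539 to 0.149) and with the replicate block (0.114), and that of the 5' site without H3B-8800 replicate 2 (-9.73 points). In WT cells both were called without H3B-8800 replicate 2 (20.7 and -19.5 points), and the 5' site also without DMSO replicate 2 (-14.4 points).

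The called exons and introns differ in length from the rest. The median length was 104 nt for the called exons in K700E cells and 106 nt in WT cells, against 123 nt for the member exons not called; over all tested genes the medians were 102 and 113 nt. Called introns had a median of 466.5 nt in both genotypes, against 933 and 925.5 nt for those not called. Over all tested genes the medians were 511 and 507 nt against 1309 and 1312 nt. Of member introns up to 150 nt, 52.1% were called in K700E cells and 49.3% in WT cells, beside 45.8% and 47% of all such introns. Of the 31 member introns over 5000 nt, 2 and 3 were called (6.45% and 9.68%, beside 10.8% and 11.8%), and the PCNT intron is one of them. Where an exon lies in the coding part of the principal transcript, its loss kept the frame in 43 of 132 called exons in K700E cells (32.6%) and 51 of 144 in WT cells (35.4%), against 46.0% and 44.3% of the member exons not called. Counted over all tested exons, coding or not, a length that is a multiple of 3 was held by 37.4% of called and 37.5% of other exons in K700E cells, and by 37.3% and 37.6% in WT cells; among all member exons the shares were 35.1% and 44% in K700E cells, and 36.8% and 43.1% in WT cells. Of the 89 and 93 called exons that shift the frame, 85 and 89 lead to a stop before the last exon junction, at a median of 23 bases after the exons join. Stops were not counted for exons not called or for other genes, so this share has no comparison. Whether the transcripts with a stop were degraded was not tested.

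Genotype alone made few differences in these genes. Between K700E and WT cells with DMSO, 9 of 1117 member events were called (0.806%), against 0.349% of all events. The 9 lie in 6 genes, ECT2, BUB1B, KIF14, ESPL1, CEP192 and KIF20A, and 8 of the 9 are 3' splice sites. In ECT2 and BUB1B the count holds both the gained site and the usual site that competes with it. How many of the genotype calls over all genes are 3' sites was not counted. The sites called as gaining use in K700E cells, in ECT2, BUB1B, KIF14, ESPL1 and CEP192, lay 15 to 54 nt upstream of the usual ones, and in KIF20A the usual site lost use to one downstream.

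ECT2 carried the largest of them. A 3' site at chr3:172762398, 18 nt upstream of the usual one, was used at 40.2, 46.1 and 43.8% in K700E cells with DMSO, against 0.72, 1.45 and 1.18% in WT cells with DMSO. With H3B-8800 it was used at 71.04, 72.8 and 77.8% in K700E cells and 3.88, 5.05 and 3.28% in WT cells. No K700E sample overlaps a WT sample, and in K700E cells the treated samples lie above those with DMSO (adjusted p = 4.6e-06 between genotypes in DMSO). An ECT2 exon of 93 nt at chr3:172755483-172755575 was included at 33.02, 34.9 and 33.7% in K700E cells with DMSO, against 2.64, 2.43 and 1.93% in WT cells with DMSO. With H3B-8800 it averaged 10.1 ± 1.9% in K700E cells and 0.937 ± 0.46% in WT cells, so the drug lowered in K700E cells an exon that is higher in them than in WT cells. The usual site, 18 nt downstream, averaged 56.7 ± 2.96% in K700E cells and 98.6 ± 0.63% in WT cells with DMSO.

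BUB1B used a site 15 nt upstream of the usual one at 20.8, 21.2 and 21.8% in K700E cells with DMSO, against 2.83, 3.97 and 2.72% in WT cells with DMSO. With the drug the same site was used at 62.3, 55.03 and 64.3% in K700E cells and 24.1, 26.6 and 20.4% in WT cells. Here the drug raised the site in both genotypes, and treated WT samples lie at 20.4% to 26.6%, around the K700E samples with DMSO. The usual BUB1B site averaged 76.6 ± 1.5% in K700E and 95.05 ± 0.94% in WT cells with DMSO.

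In the other genes 1 site each was called. KIF14 used a site 54 nt upstream at 16.1 ± 3.2% in K700E and 0 ± 0% in WT cells with DMSO, and at 27.8 ± 6.6% in K700E and 0.467 ± 0.404% in WT cells with H3B-8800. ESPL1 used one 27 nt upstream at 13.9 ± 4.9% in K700E and 0.247 ± 0.43% in WT cells with DMSO. CEP192 used one 23 nt upstream at 14.1 ± 5.1% in K700E and 1.38 ± 0.25% in WT cells with DMSO, a call that ends when percentage points are tested (adjusted p = 0.202). In these 3 genes WT cells with DMSO used the site at 1.38% or less. In KIF20A the usual site stood at 77.4 ± 3.5% in K700E and 99.8 ± 0.13% in WT cells with DMSO, and the other site of that event lies 56 nt downstream.

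**Figure D4:**
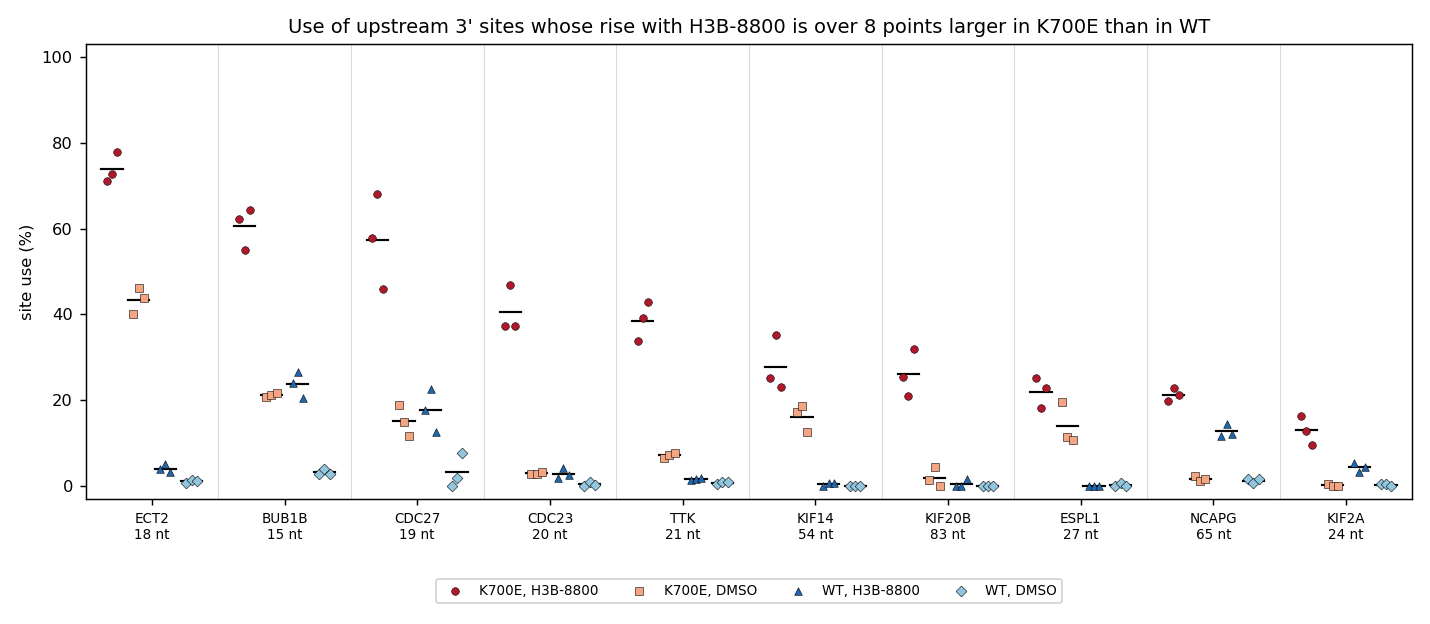
Use (%) of the 10 member 3' sites whose rise with H3B-8800 was over 8 points larger in K700E than in WT cells, 1 point per sample, with K700E H3B-8800, K700E DMSO, WT H3B-8800 and WT DMSO from left to right and the distance to the usual site under the gene. The sites were picked for that difference; ECT2 stands at 73.9%, 43.3%, 4.07% and 1.12%, while TTK and CDC23 in WT cells with H3B-8800 stay at 1.67% and 2.85%.

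At several upstream sites the highest use was in K700E cells with H3B-8800. They are given as values, without a test, since they were picked for that pattern. In CDC23 a site 20 nt upstream stood at 37.3, 46.9 and 37.4% in K700E cells with H3B-8800, against 2.78, 2.86 and 3.2% in K700E cells with DMSO. In WT cells it stood at 1.84, 4.19 and 2.53% with H3B-8800 and 0, 0.95 and 0.3% with DMSO. The treated K700E samples stand apart from the other 9. In TTK a site 21 nt upstream stood at 33.8, 39.1 and 42.8% in K700E cells with H3B-8800, against 6.58, 7.17 and 7.69% in K700E cells with DMSO. In WT cells it averaged 1.67 ± 0.24% with H3B-8800 and 0.79 ± 0.25% with DMSO. In CDC27 a site 19 nt upstream stood at 57.3 ± 11% with H3B-8800 and 15.1 ± 3.6% with DMSO in K700E cells, and at 17.6 ± 4.99% with H3B-8800 and 3.19 ± 4% with DMSO in WT cells. A second KIF20B site, 83 nt upstream and chosen after its values were seen, stood at 26.1 ± 5.5% with H3B-8800 and 1.92 ± 2.2% with DMSO in K700E cells, and at 0.563 ± 0.98% with H3B-8800 and 0 ± 0% with DMSO in WT cells. The KIF20B site 66 nt upstream, in the same intron, averaged 36.6 ± 5.03% in K700E and 35.4 ± 3.5% in WT cells with H3B-8800. KIF2A used a site 24 nt upstream at 12.97 ± 3.4% with H3B-8800 and 0.167 ± 0.29% with DMSO in K700E cells, and at 4.34 ± 0.99% with H3B-8800 and 0.307 ± 0.27% with DMSO in WT cells.

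Whether the effect of H3B-8800 differed between K700E and WT cells was tested directly, and the answer depends on the scale. On log odds, limma called 0 of 1117 member events (0.00917% of all events), with 84 at an unadjusted p under 0.05 (7.52%, against 7.23% of all events). Of simulated events changed by 2 log2 units, this test recovered 45%. The simulation held no events with levels near either end of the scale and set no 10-point limit. Its share therefore need not hold for sites or introns little used without the drug. On percentage points 13 member events were called (1.16%, against 0.664% of all events), in ECT2, BUB1B, NCAPH, CDC23, ESPL1, TTK, KIF20B and NCAPG. NCAPG intron 10, 324 nt and chosen after its values were seen, shows how the scales part. Its retention was 36.1, 34.1 and 35.7% in K700E cells with H3B-8800, against 1.5, 1.35 and 1.65% in K700E cells with DMSO. It was 5.57, 5.96 and 5.5% in WT cells with H3B-8800, against 0.07, 0.08 and 0.25% in WT cells with DMSO. The drug added 33.8 points in K700E cells and 5.54 in WT cells, while the log2 odds changed by 5.09 and 4.96. The smallest p values of the difference belonged to an exon of CDC27, intron 18 of KIF14 and the TTK site (adjusted p = 0.0462, 0.102 and 0.159). KIF14 intron 18, which holds the upstream site above, was retained at 17.2 ± 4.4% with H3B-8800 and 9.12 ± 1.5% with DMSO in K700E cells, and at 4.57 ± 1.4% with H3B-8800 and 0.0733 ± 0.13% with DMSO in WT cells.

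The CDC27 exon passed at a change under 10 points. It is exon 10 of 19, 100 nt at chr17:47143883-47143982, included at 100, 100 and 100% in K700E cells with H3B-8800, against 99.9, 98.4 and 100% in K700E cells with DMSO. It was included at 92.3, 93.2 and 92.8% in WT cells with H3B-8800, against 100, 100 and 100% in WT cells with DMSO. The 3 treated WT samples lie below the other 9, and the difference of the effects was 7.85 points. Its adjusted p was 0.335 with the replicate block, 0.278 with weights from the reads, and between 0.00459 and 0.134 with 1 library left out. The near-identical copies of CDC27 make these reads uncertain as well.

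In spliced reads, 2 member genes differed between K700E and WT cells with DMSO (4.08%, against 4.86% of all genes). CDC27 stood at 167, 147 and 159 RPM in K700E cells and 215, 216 and 219.5 RPM in WT cells with DMSO, a log2 change of -0.46 (SE 0.09, adjusted p = 0.0155). NUSAP1 stood at 396, 356 and 358 RPM in K700E cells and 283, 257 and 271 RPM in WT cells with DMSO, a log2 change of 0.45 (adjusted p = 0.0137). The groups do not overlap in either gene, but the CDC27 call ends without any 1 of the WT DMSO replicates (adjusted p = 0.0592, 0.0724 and 0.0607 without replicates 1, 2 and 3), and the NUSAP1 call without replicate 2 or 3 (0.0756 and 0.0515). The effect of the drug on spliced reads differed between genotypes in 0 members without a block (0.0491% of all genes), with 7 members at an unadjusted p under 0.05 (14.3%, against 5% of all genes). With clone or culture as a replicate block it differed in 8 members (16.3%), against 6.05% of all genes: PLK1 and CDCA8 (differences of -0.24 and -0.23 on the log2 scale, K700E minus WT) and KIF4A, CDC20, ANAPC1, SMC4, KIFC1 and NCAPH (0.28, 0.31, 0.32, 0.33, 0.38 and 0.41). In 5 of those 6, all but KIFC1, spliced reads fell in both genotypes and fell less in K700E cells. Over all genes the block called 616 differences, 485 of them positive and 131 negative, so positive differences were not particular to the members.

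Of 98 other genes of the same machinery, from kinetochore and cohesin to the augmin complex, 97 were tested. Spliced reads were lower in 36 and higher in 17 in K700E cells, and lower in 42 and higher in 19 in WT cells. In K700E cells these are 37.1% and 17.5%, against 35.8% and 16.2% of all genes, and in WT cells 43.3% and 19.6%, against 40.8% and 18.5%. Their median log2 changes were -0.09 and -0.19, beside -0.22 and -0.28 over all genes. Of their 1570 tested events, 475 were called in K700E cells (30.3%) and 463 in WT cells (29.5%), against 31.3% and 32% of all events. The lowest changes were in 3 genes of the inner kinetochore. CENPK stood at 11.8, 23.4 and 11.7 RPM in K700E cells with H3B-8800, against 87.1, 103 and 79.4 RPM in K700E cells with DMSO. In WT cells CENPK averaged 7.903 ± 1.6 RPM with H3B-8800 and 69.7 ± 3.2 RPM with DMSO. The log2 changes of CENPK, CENPI and CENPP were -2.60, -2.03 and -1.48 in K700E cells and -3.16, -2.43 and -2.07 in WT cells. These proteins assemble on CENPA nucleosomes, and CENPA itself rose. The highest changes were in STIL, a centriole duplication factor, FBXO5, an inhibitor of APC/C, and BORA, an activator of PLK1, with 0.88, 0.89 and 0.79 in K700E cells and 0.94, 0.92 and 0.97 in WT cells.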

How the data were processed

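RNA of 12 MEC1 samples was sequenced from stranded poly(A) libraries, with 3 technical runs per library, per the labels. The authors deposited 1 table of splicing events on hg38 that gives, per event and sample, a level in percent and the counts of inclusion and exclusion reads behind it. The adapter trimmer was cutadapt 2.4, per the submitters' processing notes. For the aligner and the event caller, names and versions were not given in the sources at hand. The deposited percent values were recomputed from their reads, and 0 of 4598029 values with at least 10 reads differed by more than 1 point. The 36 columns of single runs were not used.

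Tested events had at least 20 reads in all 12 samples, a mean level of 1 to 99 percent and, for introns, balanced reads at both ends. The log2 odds, with 0.5 reads added to each side, were fitted with limma 3.58.1 (R 4.3.3) over all 109093 events and 4 groups. Spliced reads are the exon-exon reads at a gene's introns, as log2 of RPM, scaled to the library's total of such reads, with 0.5 reads added, for genes with a mean of at least 50. Positions and frames are from GENCODE 29. Both fits were tested on simulated data with unpaired samples. Simulated events had levels away from both ends of the scale and a set spread, and were called by adjusted p alone. Of events changed by 2 log2 units, 79.5% to 82.5% were recovered, and 45% for the difference of the effect. Of genes changed by 1 log2 unit, 99% to 99.5% were recovered, and 70.5% for the difference. A replicate block pairs the samples of 1 clone or culture, as the labels' sample suffixes do: the correlations of paired deviations were 0.658 to 0.925 for genes and 0.015 to 0.069 for events. Named are, per gene, the called exon, intron and splice sites with the largest change in WT cells (in K700E cells where WT cells have none) whose groups do not overlap, all calls between genotypes, and the 3 smallest p of the difference. Members and gene lists were chosen with earlier results of these data known.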

Additional observations from a re-analysis of the deposited data

Results flagged for a closer look

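The effect of H3B-8800 on exon 10 of CDC27 differed between genotypes: K700E minus WT was 7.85 points by a test of the difference (limma, adjusted p = 0.0462). The exon was included at 100% with H3B-8800 and 99.4% with DMSO in K700E cells, and at 92.8% with H3B-8800 and 100% with DMSO in WT cells. The exon belongs to a gene with near-identical copies, and their part in this difference was not tested.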

How the results depend on the processing

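Scaling mattered most for spliced reads. With median-of-ratios size factors 21 members were called as higher in K700E cells, 4 genes differed between genotypes with DMSO, and the log2 change turned positive in K700E cells for ESPL1 (0.0902), CDCA8 (0.142) and NUSAP1 (0.0455), and in WT cells for MAD2L1 (0.145), KIF11 (0.104), KIF14 (0.0543), KIF20B (0.0455), KIF22 (0.213), KIF2C (0.0378), ASPM (0.145) and NUSAP1 (0.121). With the median over a gene's introns KIF23 in K700E cells turned to -0.108. With 1 library left out, signs turned for MAD2L1 (-0.0448 to 0.0693), KIF23 (-0.00353 to 0.137) and ASPM (-0.0182 to 0.212) in K700E cells, and for PLK4 (-0.0119 to 0.0706), KIF20A (-0.0427 to 0.0919) and KIF22 (-0.161 to 0.121) in WT cells. None of these values was called under the setting that turned its sign. Genes called between genotypes then numbered 0 to 2. The difference of the drug's effect gave 13 events when tested on percentage points, 1 with no filter on intron balance and, for spliced reads, 8 genes with the replicate block. The block gave 379 called events in K700E cells and 370 in WT cells, and 44 and 42 called genes. The cause of these shifts was not tested. Direction was followed only for the events named by the rule, which were mostly picked for large changes. None of them changed direction with 1 library left out. The other settings use the same group means in points, so direction could not change under them. Depth limits the levels with few reads: a level of 0 over 20 reads allows up to 15 percent.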
